A study of Mus musculus with 36 samples.

Results

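The comparison described here set young mouse liver at the time point labelled 240 against young liver before regeneration, and asked what had not returned to the resting state. Its members were the libraries whose titles place them in either group, 3 at 240 and 3 before, which is 6 of the 36 libraries of the series. The series followed regeneration in livers of young mice of 4 months and old mice of 18 months at 6 time points labelled before, 48, 72, 96, 120 and 240. The labels gave these time points without a unit and did not say how regeneration was brought about. All groups used here were of the C57BL/6JN strain, a common inbred laboratory line, with no transgene or drug in the labels. The submitters named old as the treated group, so that young mice were the reference, and added ERCC spike-in mix 1 to the young RNA.

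The liver regrows after loss of tissue by division of the cells that remain, and its growth stops when mass is restored. Immediate early genes are those whose transcription is switched on within minutes of a growth signal or of stress, without new protein synthesis. They encode transcription factors of the AP-1 group such as Jun, Fos, Fosb and Atf3, and proteins that end the signal, such as the phosphatase Dusp1 and the RNA-decay factor Zfp36. In regenerating liver they are known as an early response to loss of tissue.

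Few genes were called at 240, and most of those were lower than before. Of 13436 genes tested, 33 differed between the groups (0.246%), of which 26 were lower at 240 (0.194%) and 7 were higher (0.0521%), with edgeR's quasi-likelihood test and an adjusted p under 0.05. The libraries of the 2 groups did not overlap for 33 of the 33 genes. These genes were chosen by the same values, so the lack of overlap adds no support to the calls. Of the 26 lower genes, 9 were immediate early genes: Zfp36, Jun, Nr4a1, Fosb, Fos, Btg2, Atf3, Dusp1 and Rhob. The others included the glycogen regulator Ppp1r3g, the stress cytokine Gdf15 and the transcription factor Sox13. The cold-inducible gene Rbm3 led the 7 higher genes. At an unadjusted p under 0.05 the test listed 687 genes (5.11%), 343 higher (2.55%) and 344 lower (2.56%). The number called ranged from 8 to 30 when each of the 6 libraries was left out in turn, with 8 without replicate 2 at 240, 12 without replicate 3 at 240, 13 without replicate 3 before and 14 without replicate 2 before. Sox13, Zfp36, Jun, Actg1, Gdf15, Nr4a1, Fosb and Rbm3 were the 8 genes called with each of the 6 libraries left out. A fit of only the 2 groups compared, with their own estimate of the spread, called 43 genes, 18 of them among the 33, and did not call Actg1 (adjusted p = 0.0922, edgeR quasi-likelihood) or Fosb (0.518).

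The promoters of the immediate early genes are shown because those genes were called lower together. The 250 bases before the start in RefSeq were read for the 9 genes on the GRCm38.p6 build, and 4 of the 5 windows without an annotated exon are printed 5′ to 3′ on the gene's strand. Fos lies on the plus strand at chr12:85473640-85473889, Nr4a1 on the plus strand at chr15:101266596-101266845, Btg2 on the minus strand at chr1:134079156-134079405 and Jun on the minus strand at chr4:95052223-95052472. Capitals mark TGACG on either strand, which reads CGTCA on the other strand and is the core of the cyclic AMP response element. In Btg2 the matches on both strands overlap as TGACGTCA, the full palindrome.
Fos: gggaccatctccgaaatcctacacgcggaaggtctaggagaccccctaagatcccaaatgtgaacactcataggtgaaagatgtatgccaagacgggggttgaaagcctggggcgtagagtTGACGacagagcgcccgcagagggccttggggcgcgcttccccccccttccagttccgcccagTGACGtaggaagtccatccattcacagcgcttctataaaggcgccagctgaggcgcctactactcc
Nr4a1: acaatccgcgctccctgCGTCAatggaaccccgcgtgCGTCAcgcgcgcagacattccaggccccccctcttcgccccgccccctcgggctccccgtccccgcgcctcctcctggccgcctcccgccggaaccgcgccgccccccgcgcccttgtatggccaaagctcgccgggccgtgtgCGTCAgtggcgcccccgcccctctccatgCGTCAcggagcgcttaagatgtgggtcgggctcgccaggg
Btg2: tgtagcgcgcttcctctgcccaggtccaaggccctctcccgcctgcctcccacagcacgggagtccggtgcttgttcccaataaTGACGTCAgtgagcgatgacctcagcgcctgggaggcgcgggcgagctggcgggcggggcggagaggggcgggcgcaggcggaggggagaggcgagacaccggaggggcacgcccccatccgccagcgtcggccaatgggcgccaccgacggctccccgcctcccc
Jun: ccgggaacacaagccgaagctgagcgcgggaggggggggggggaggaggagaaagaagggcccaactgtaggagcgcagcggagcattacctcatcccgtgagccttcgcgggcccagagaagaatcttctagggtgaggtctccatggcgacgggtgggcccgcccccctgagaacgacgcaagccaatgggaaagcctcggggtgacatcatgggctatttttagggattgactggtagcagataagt
TGACG was present, on either strand, in 6 of the 9 promoters, those of Atf3, Btg2, Dusp1, Fos, Fosb and Nr4a1 (66.7%), against 17.8% of 32851 promoters in the table. The palindrome TGACGTCA, which contains it, was in 2 of 9, Btg2 and Dusp1, against 1.55% of all. GGGCGG, the Sp1 motif, was in 9 of 9 against 32.7% of all, beside a median GC content of 66% against 52.4%. A CArG box, the site of serum response factor, was found in 1 of 9, that of Zfp36, against 1.47% of all, and TGANTCA, the AP-1 motif, in 0 of 9 against 6.75%. These are matches of letters in windows of genes chosen by their change, and no difference was tested. Sites outside the 250 bases, or with other letters than these patterns, were not read, so a missing match does not show a missing site.

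Among transcription factors, Jun, the AP-1 subunit, was at 434, 823 and 933 CPM (read counts scaled to equal depth) in replicates 1, 2 and 3 before and at 66.2, 35.5 and 52.2 CPM at 240. Every library before stood several times above every library at 240. The fitted log2 fold change was -3.83 ± 0.52 (SE, n = 3 a group), or 14.3-fold lower (adjusted p = 0.000305, edgeR quasi-likelihood). Nr4a1, an orphan nuclear receptor, was at 31.4, 59.4 and 63.2 CPM before and at 3.38, 2.96 and 1.34 CPM at 240, a log2 fold change of -4.31 ± 0.64. Fos, the partner of Jun, was at 16.4, 180 and 134 CPM before and at 7.32, 1.14 and 4.01 CPM at 240. The groups did not overlap, but replicate 1 before was closer to the 240 libraries than to the other libraries before. For Fos the log2 fold change was -4.76 ± 0.80 (adjusted p = 0.00397, edgeR quasi-likelihood), and the call was lost in a fit of only the 2 groups compared (adjusted p = 0.507), without replicate 2 at 240 (0.087) and without replicate 3 at 240.

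Atf3, a stress-induced AP-1 relative, was at 16.9, 101 and 167 CPM before and at 1.69, 4.1 and 2.94 CPM at 240. Its log2 fold change was -4.99 ± 1.01 (adjusted p = 0.0256, edgeR quasi-likelihood), and the call held without replicate 1 before but was lost without each of the other 5 libraries, with an adjusted p of up to 0.209. In a fit of only the 2 groups it was 0.462. Fosb, a further AP-1 subunit, was at 2.7, 42.5 and 31.0 CPM before and at 0, 0.91 and 0.27 CPM at 240. The 3 libraries at 240 held 5 Fosb reads in all against 312 before, so the size of the change was set by few reads. The ratio of Fosb counts at equal depth was 56.3, with an exact 95% counting interval of 23.9 to 174 that leaves out the spread between libraries. The fitted log2 fold change of Fosb was -5.81, with a 95% interval of -7.69 to -3.94. Its call was lost in a fit of only the 2 groups (adjusted p = 0.518, edgeR quasi-likelihood).

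Of the genes that limit signals or growth, Zfp36 was at 223, 393 and 309 CPM before and at 83.4, 61.0 and 82.2 CPM at 240. This decay factor of short-lived messages was 4.08-fold lower (log2 fold change -2.03 ± 0.28, adjusted p = 0.000284, edgeR quasi-likelihood). Btg2, which restrains proliferation, was at 62.0, 283 and 258 CPM before and at 23.1, 18.2 and 26.0 CPM at 240, a log2 fold change of -3.16 ± 0.55. Replicate 1 before was again the lowest of its group and still above all 3 at 240. The Btg2 call was lost in a fit of only the 2 groups (adjusted p = 0.374, edgeR quasi-likelihood) and without replicate 2 at 240 (0.087).

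Dusp1, which switches off MAP kinases, was at 220, 190 and 139 CPM before and at 72.7, 20.0 and 15.5 CPM at 240, with a log2 fold change of -2.35 ± 0.52. Rhob, a small GTPase, was at 66.2, 78.1 and 72.2 CPM before and at 39.7, 45.3 and 46.3 CPM at 240, a smaller change of -0.72 ± 0.16. Both stood at the threshold (adjusted p = 0.048, edgeR quasi-likelihood), and with the replicate number as a block Dusp1 was at 0.0901. Dusp1 was lost without each library but replicate 1 at 240 (adjusted p up to 0.442), and Rhob without each of the 6 libraries (up to 0.255). In a fit of only the 2 groups the values were 0.558 for Dusp1 and 0.0845 for Rhob.

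**Figure D1:**
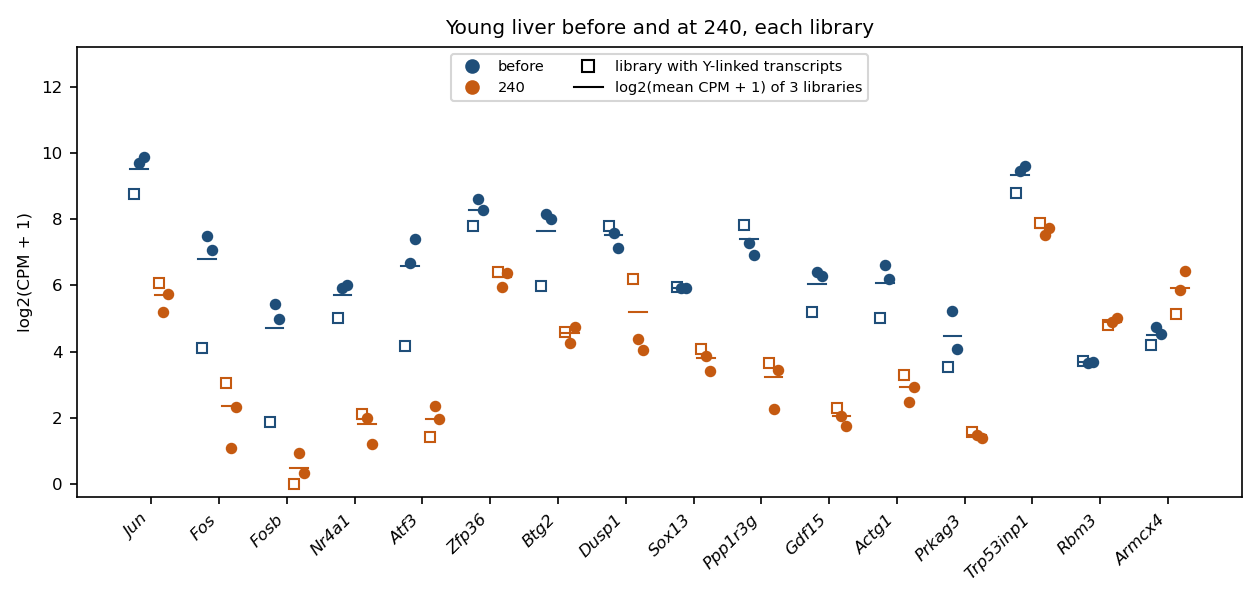
Level as log2(CPM + 1) of 16 genes called in young liver at 240 against before, with 1 point per library, short lines at the log2 of the group mean and open squares for libraries with Y-linked transcripts. All points before lie above all points at 240 for the lower genes shown, and the opposite holds for Rbm3 and Armcx4.

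The list of immediate early genes as a whole held 50 names, of which 48 were in the tables and 43 passed the filter on low counts. Of these 43, 9 were called lower and 0 higher, beside 0.194% lower and 0.0521% higher over all genes tested. The median log2 fold change was -1.12, beside 0.00 over all genes tested, and 40 of the 43 were below 0. At an unadjusted p under 0.05, 25 were lower and 1, Ier5, was higher, with Ier5, named after its value was seen, at a log2 fold change of 0.78 (adjusted p = 0.862, edgeR quasi-likelihood). Just outside the threshold were Dusp6, another phosphatase of MAP kinases, at -1.68 ± 0.38 (adjusted p = 0.0625, and 0.0256 with the replicate block, edgeR quasi-likelihood) and Ier2 at -2.17 ± 0.50 (adjusted p = 0.0762). Egr1, a zinc finger factor, was at 101, 481 and 472 CPM before and at 18.0, 24.6 and 210 CPM at 240. Replicate 3 at 240 lay within the range before, and Egr1 missed the threshold (log2 fold change -2.06 ± 0.83, adjusted p = 0.817). The list was chosen with the direction of several members known, so its count is a description. Without replicate 2 at 240 the number called lower was 4, and without replicate 3 at 240 it was 5.

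Beyond this list, Sox13, a SoxD transcription factor, was at 60.7, 59.4 and 59.1 CPM before and at 15.8, 13.7 and 9.63 CPM at 240. The libraries before agreed closely, and the log2 fold change was -2.20 ± 0.27, with the smallest adjusted p of the comparison (9.5e-05, edgeR quasi-likelihood). Actg1, cytoplasmic gamma-actin, was at 31.6, 96.7 and 71.9 CPM before and at 8.73, 4.55 and 6.69 CPM at 240. Actin genes have near-identical copies, so the level of Actg1 depends on how the authors assigned shared reads, and its call was lost in a fit of only the 2 groups (adjusted p = 0.0922, edgeR quasi-likelihood). Gdf15, a cytokine released by stressed cells, was at 35.4, 83.6 and 76.8 CPM before and at 3.94, 3.19 and 2.41 CPM at 240, 20.4-fold lower. Trp53inp1, a p53-induced gene, was at 444, 699 and 782 CPM before and at 236, 182 and 212 CPM at 240, a log2 fold change of -1.61 ± 0.33. Its call was lost without each library but replicate 1 before (adjusted p up to 0.234, edgeR quasi-likelihood).

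Ppp1r3g, which brings protein phosphatase 1 to glycogen and promotes its synthesis, was at 226, 155 and 120 CPM before and at 11.6, 3.87 and 9.90 CPM at 240. Here replicate 1 before was the highest, the reverse of the order for Fos and Jun. The log2 fold change was -4.32 ± 0.69 (adjusted p = 0.00199, edgeR quasi-likelihood), with an adjusted p of 0.0535 without replicate 2 at 240. Prkag3, a regulatory subunit of AMP-activated kinase, was at 10.6, 36.8 and 16.0 CPM before and at 1.97, 1.82 and 1.61 CPM at 240. Its call was lost without any 1 of 3 libraries, replicate 2 before and replicates 2 and 3 at 240 (adjusted p up to 0.087), and in a fit of only the 2 groups (0.0529). Fbp2, the muscle form of fructose bisphosphatase, fell from 119 reads before to 4 reads at 240. The ratio for Fbp2 at equal depth was 26.8, with a counting interval of 10.2 to 100 that leaves out the spread between libraries. It lost its call without any 1 of 5 libraries (adjusted p up to 0.234).

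The list of gluconeogenesis and glycogen genes, which did not include the called gene Fbp2, held 22 tested members. Of these, Ppp1r3g alone was called and 21 had an estimate below 0. Their median log2 fold change was -0.22, beside 0.00 over all genes tested. G6pc, which releases glucose from the liver, was at 1903, 1459 and 1622 CPM before and at 610, 324 and 469 CPM at 240. Igfbp1, a binding protein of insulin-like growth factors that insulin represses, was at 422, 466 and 462 CPM before and at 45.6, 32.8 and 97.7 CPM at 240. Neither pair of groups overlapped, but neither gene passed the threshold (adjusted p = 0.255 for G6pc and 0.189 for Igfbp1, edgeR quasi-likelihood). Of 20 tested genes of fatty acid synthesis 0 were called, with 3 lower at an unadjusted p under 0.05 and a median of -0.35. Over all genes tested, 2.56% were lower at that p.

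The remaining lower genes were of mixed function. Ifrd1, a transcriptional co-regulator, was at 59.1, 126 and 105 CPM before and at 44.2, 25 and 27.6 CPM at 240. Its neighbour Lsmem1, a membrane protein gene that lies 3813 bases away on chromosome 12, fell from 74 reads to 2. The ratio for Lsmem1 was 33.4, with a counting interval of 8.91 to 281 that leaves out the spread between libraries. The strand setting of the counting is not given in the sources used here, so reads of neighbouring and overlapping genes may be shared. Rgs1 and Rgs8, regulators of G protein signalling, were also lower. Rgs1 was at 16.6, 15.4 and 26.9 CPM before and at 5.63, 2.73 and 1.87 CPM at 240, with an adjusted p of 0.0361 that became 0.0693 with the replicate block (edgeR quasi-likelihood). Rgs8 fell from 56 reads to 1. For Cnnm1, a gene of a family tied to magnesium transport, 64 reads before stood against 4 at 240. Elf2, an ETS transcription factor, Irf2bp2, a co-repressor, Med23, a subunit of the Mediator complex, and Frmd4b, a FERM domain protein, fell by less, with log2 fold changes of -0.87, -1.02, -1.21 and -1.01. Btbd19, a BTB domain gene, was at 43.5, 22.1 and 15.5 CPM before and at 7.6, 1.37 and 4.01 CPM at 240. Each of these 10 genes lost its call without at least 3 of the 6 libraries, with adjusted p values (edgeR quasi-likelihood) of up to 0.209 for Ifrd1, 0.182 for Lsmem1, 0.329 for Rgs1, 0.234 for Rgs8, 0.26 for Cnnm1, 0.189 for Elf2, 0.293 for Irf2bp2, 0.304 for Med23, 0.287 for Frmd4b and 0.153 for Btbd19. In a fit of only the 2 groups Ifrd1 and Btbd19 also lost the call (0.183 and 0.34).

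Of the 7 higher genes, Rbm3, an RNA-binding protein induced by mild cold, was at 12.3, 11.7 and 11.9 CPM before and at 26.8, 28.9 and 31.3 CPM at 240. Both groups were tight, and Rbm3 was 2.42-fold higher (log2 fold change 1.28 ± 0.22, adjusted p = 0.00346, edgeR quasi-likelihood). It was the 1 gene called of 18 in a list of cold-inducible and RNA-binding genes, whose median was 0.15. Armcx4, an X-linked armadillo repeat gene, was at 17.3, 25.6 and 22.0 CPM before and at 34.1, 57.8 and 85.4 CPM at 240, with its call lost without each library but replicate 1 at 240 (adjusted p up to 0.334) and in a fit of only the 2 groups (0.188). Reep1, which shapes the endoplasmic reticulum, was at 1.87, 1.49 and 1.69 CPM before and at 5.07, 6.14 and 4.55 CPM at 240, and its call was lost without each of the 6 libraries (up to 0.293), with the replicate block (0.0693) and in a fit of only the 2 groups (0.0867). The other higher calls were 4 antisense or long noncoding RNAs, Ttc39aos1, A630089N07Rik, 4831440E17Rik and 1810019D21Rik, whose counts are uncertain where strand was not used. Their log2 fold changes were 2.91, 1.62, 1.95 and 1.63, and each lost its call without at least 5 of the 6 libraries. In a fit of only the 2 groups A630089N07Rik (adjusted p = 0.183, edgeR quasi-likelihood) and 1810019D21Rik lost theirs.

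Cell cycle genes stood far nearer to their level before than at 48. Of 32 mitosis genes and 32 DNA replication genes tested, 0 and 0 were called at 240 by edgeR's quasi-likelihood test. At an unadjusted p under 0.05 there were 0 and 1, beside 5.11% over all genes tested. Mki67, a marker of cycling cells, had a mean of 41.0 CPM before and a peak of 2288 at 48, and its mean was down to 154 at 120 and 73.3 at 240. At 240 the libraries held 32.7, 141 and 46.6 CPM of Mki67 against 31.4, 45 and 46.5 before. Replicate 2 at 240 stood above the rest, while the others lay within or next to the range before, and the log2 fold change of Mki67 was 0.84 ± 0.77 with a 95% interval of -0.74 to 2.43. Without that library it was -0.046. Median log2 fold changes were 0.50 for mitosis and 0.35 for DNA replication at 240, against 5.52 and 3.03 at 48. At 240, 30 and 24 of these genes were above 0, beside a median of 0.00 over all genes tested. The interval lay within 2-fold for 0 of the 32 mitosis genes and for 7 of the 32 replication genes, so at their low counts a return to within 2-fold was not shown.

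Hepatocyte genes stood near their level before, as did most genes tested. Of 28 hepatocyte function genes 0 were called, with 1 at an unadjusted p under 0.05 and a median of -0.03. For 21 of them the 95% interval lay within 2-fold. Over all genes tested, 0.246% were called, 5.11% had an unadjusted p under 0.05 and the interval lay within 2-fold for 67.7%. Alb, which encodes serum albumin, was at 8339, 10035 and 9107 CPM before and at 10657, 8232 and 9975 CPM at 240, and its groups overlapped (log2 fold change 0.07 ± 0.22). Afp, the fetal counterpart of albumin, was at 2.91, 10.7 and 6.78 CPM before and at 5.07, 14.1 and 14.99 CPM at 240, also with overlap. Ribosome biogenesis genes lay within 2-fold in 27 of 29 cases. Of the 22 p53 target genes, Btg2 and Trp53inp1 were called lower and the median was 0.03, while Cdkn1a, the p53-induced cell cycle inhibitor, had a mean of 3.46 CPM before, 61.4 at 48 and 4.37 at 240.

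**Figure D2:**
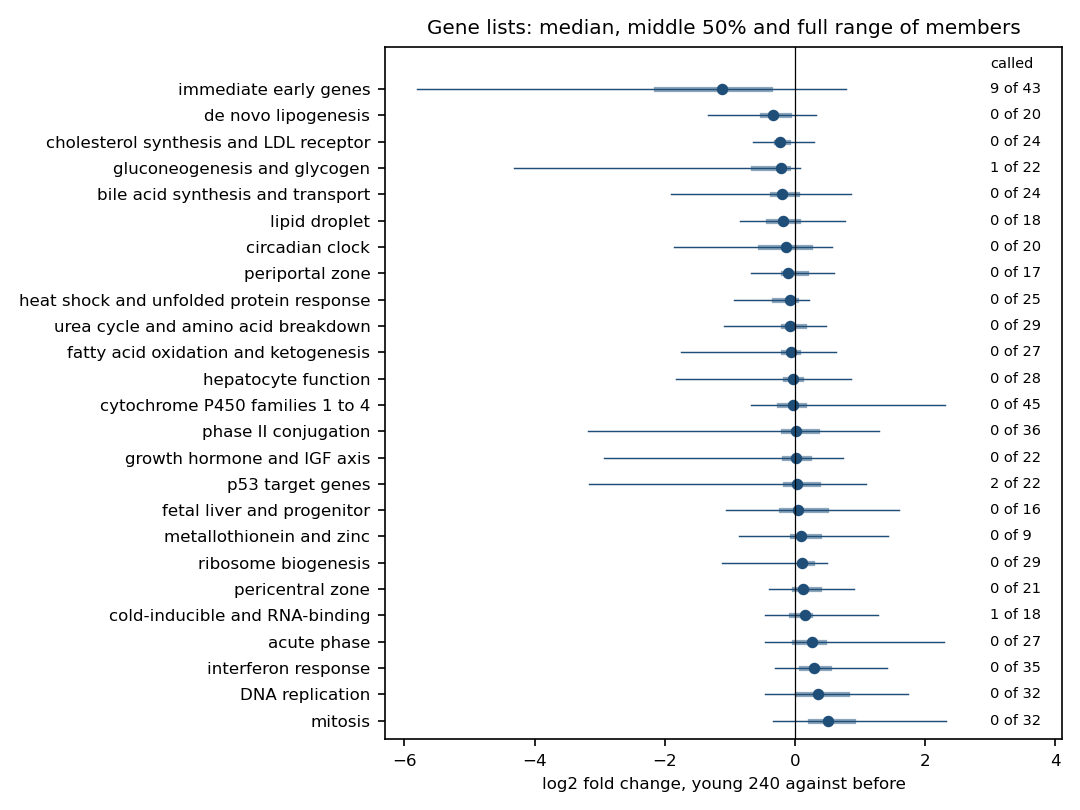
Log2 fold change of young liver at 240 against before for the members of each gene list: points are medians, thick bars the interquartile range of the members and thin lines the full range, with the number called at the right. Immediate early genes lie farthest to the left, at a median of -1.12, and mitosis genes farthest to the right, at 0.50.

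Over all genes, the 95% interval of the log2 fold change lay between -1 and 1 for 9099 of 13433 genes (67.7%), lay wholly beyond 2-fold for 34, and decided neither for 4300 (32.01%). The number within 2-fold was 7036 at 48, 7431 at 72, 8520 at 96 and 8693 at 120. As a single value for the whole profile, the root mean square difference in log2 CPM was taken between libraries. Pairs of a 240 and a before library differed by 0.533 on average, against 0.497 for pairs within before and 0.532 for pairs within 240. The excess of pairs between groups over pairs within was 0.018, with p = 0.50 in an exact permutation test over 20 splits. The smallest p that test can give is 0.10, so it could not pass 0.05 and shows nothing about closeness to before. Pairs with before differed by 0.915 at 48, 0.809 at 72, 0.618 at 96 and 0.590 at 120. The distances within groups also held the difference between libraries with and without Y-linked transcripts, which replicate 1 carried in both groups, and the free splits took no account of it. Over the 2 libraries without them in each group, pairs between 240 and before differed by 0.479 against 0.405 within before and 0.399 within 240, an excess of 0.076. The same excess was 0.44 at 48, 0.423 at 72, 0.136 at 96 and 0.152 at 120. This split of the distances was chosen after seeing the data. Over the 1000 most abundant genes the excess at 240 was -0.029.

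Most genes called at 240 already had a mean apart from that before at 48. Comparisons of 48, 72, 96, 120 and 240 with before share the 3 libraries before, so their values are set side by side without a test. In young liver the test called 2949 genes at 48 (21.9%), 2340 at 72 (17.4%), 188 at 96 (1.40%), 78 at 120 (0.581%) and 33 at 240. Of the 26 lower genes, 25 had their highest of 6 group means before; the exception was Rhob, at 72.1 CPM before and 79.8 at 48. The 7 higher genes had their lowest mean before. All 33 genes were chosen by their difference from the libraries before, which favours such an order. The share over all genes was not taken. The mean at 240 lay within the range of the 4 means from 48 to 120 for 13 of the 26 lower genes, below it for 8 and above it for 5.

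Fos means were 110 CPM before and 7.42, 5.80, 4.77, 4.14 and 4.16 CPM at the successive later times. Jun stood at 730 before, then at 147, 206, 64.5, 54.5 and 51.3 CPM. Dusp1 stood at 183 before and between 33.5 and 37.6 CPM from 48 to 120, with 36.1 at 240. These levels were low at each sampled time after before. Ppp1r3g stood at 167 before and at 0.98, 1.46, 3.24, 3.35 and 8.44 CPM afterwards, highest of the later times at 240. Rbm3 stood at 11.9 before and between 25.8 and 29.95 CPM from 48 to 120, with 29.0 at 240. The mean of Armcx4 at 240 lay between the others, with 21.6 before, 116 to 125 CPM from 48 to 120 and 59.1 at 240. Its SD was 38.7 CPM at 120 and 25.7 CPM at 240, and its difference between those times was not called.

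Set against 120, which does not use the libraries before, 0 genes were called at 240 by edgeR's quasi-likelihood test, with 446 at an unadjusted p under 0.05 (3.32%). That p does not show that the groups were alike. The median log2 fold change of the immediate early list was -1.33 at 48, 72 and 96, -1.27 at 120 and -1.12 at 240.

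**Figure D3:**
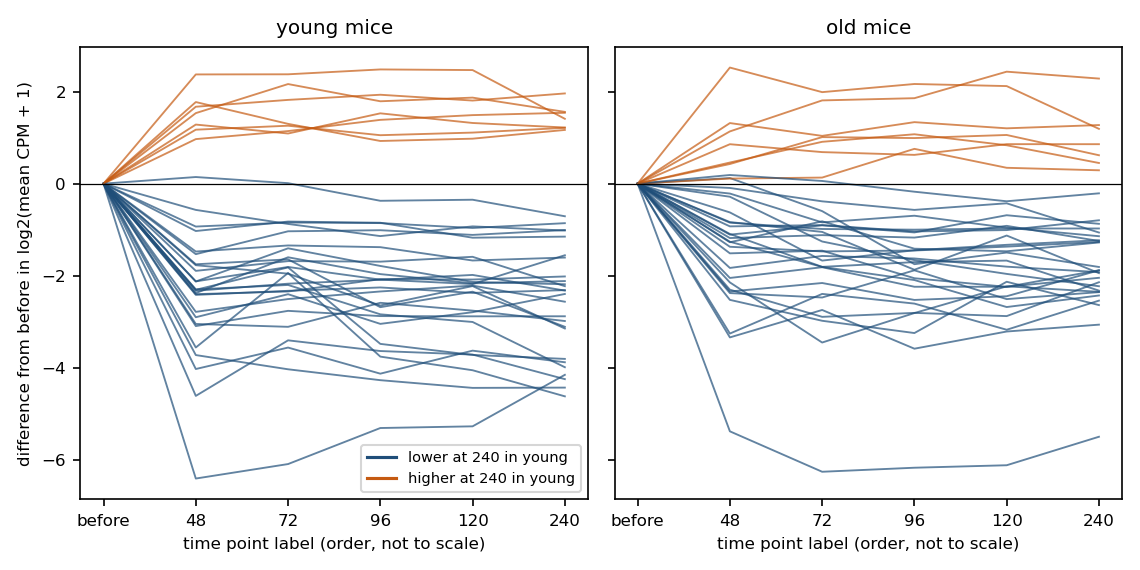
Difference from before in log2(mean CPM + 1) for each gene called in young liver at 240, in young (left) and old (right) mice, against the time point labels in order. In young mice the lines leave 0 by 48, apart from that of Rhob, and the highest line at 120, that of Armcx4, comes back toward 0 at 240.

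**Figure D4:**
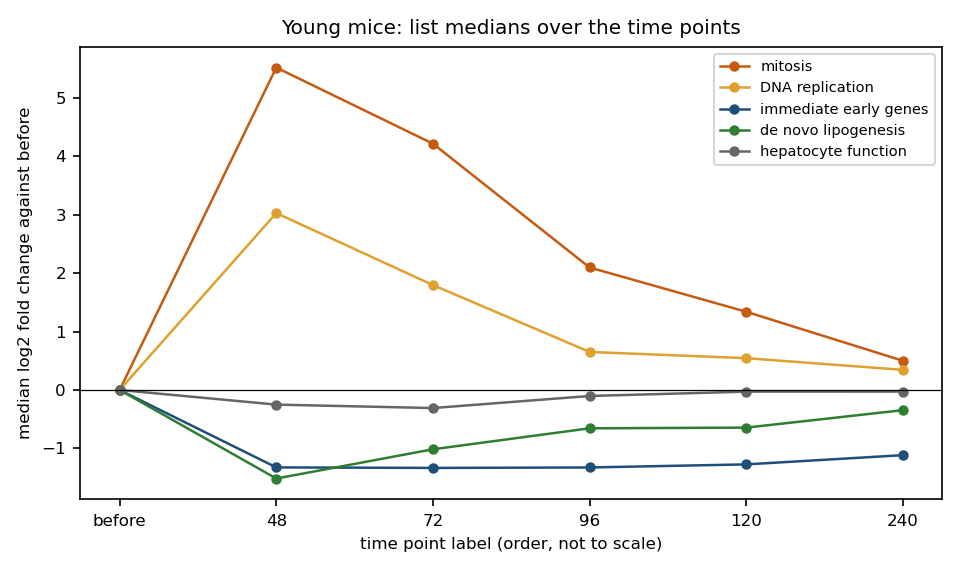
Median log2 fold change against before of the listed gene groups at each young time point. Mitosis genes fall from 5.52 at 48 to 0.50 at 240, while immediate early genes stay between -1.33 and -1.12.

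Old liver at 240 and before, another 3 and 3 libraries, gave values for the same genes in samples that did not enter the young contrast. In old mice 21 genes were called (0.156%), 2 higher (0.0149%) and 19 lower (0.141%). Of the 33 genes called in young, 12 were also called in old, which is 36.4% of the young calls and 57.1% of the old calls. In old, 33 of 33 had the same direction. The share with the same direction over all genes was not taken, so that count has no background to be read against. These old calls rested on the spread shared with the young libraries: in a fit of only the 2 old groups, and in a fit of only the old libraries, 0 genes were called in old by edgeR's quasi-likelihood test, with 927 and 721 at an unadjusted p under 0.05. DESeq2 with all libraries called 54. The 12 were Sox13, Zfp36, Nr4a1, Ppp1r3g, Prkag3, Btbd19, Elf2, Irf2bp2, Rgs1, Cnnm1, Rbm3 and Ttc39aos1. Rbm3 was at 9.39, 10.9 and 10.5 CPM before and at 28.4, 28.3 and 22.1 CPM at 240 in old mice, a log2 fold change of 1.35 ± 0.22 (adjusted p = 0.00542, edgeR quasi-likelihood). Ppp1r3g fell in old from 44.6, 79.3 and 276 CPM to 0.66, 2.72 and 2.55 CPM, and Zfp36 from 193, 218 and 390 CPM to 79.6, 56.2 and 79.4 CPM. Without replicate 3 of old before, 4 genes were called in old, and without replicate 1, 2 or 3 of old 240 the number was 7, 5 or 5. With the replicate block it was 13.

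The estimated change was larger in size in young for 27 of the 33 genes, which were chosen by their change in young. Jun was at 327, 374 and 811 CPM before in old mice and at 249, 105 and 54.4 CPM at 240, without overlap, with a log2 fold change of -1.89 ± 0.48 (adjusted p = 0.126, edgeR quasi-likelihood). The change in Jun was 1.95 ± 0.66 higher in old than in young, with an adjusted p of 1.00 for that difference. Over all genes the difference between the ages was called for 0 of 13436 by edgeR's quasi-likelihood test, with 179 at an unadjusted p under 0.05 (1.33%), and DESeq2 called 0 with 135. Of the 33 genes, 8 had an unadjusted p under 0.05 for the difference: Sox13, Jun, Actg1, Gdf15, Atf3, A630089N07Rik, Reep1 and Rhob.

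**Figure D5:**
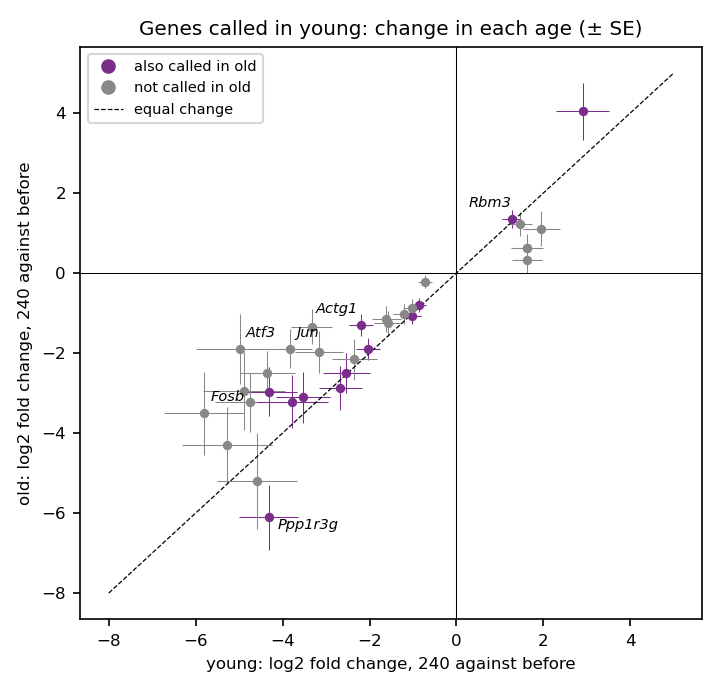
Log2 fold change at 240 against before in young (x axis) and old (y axis) mice for the genes called in young, with SE bars and a dashed line of equal change. All 33 points share the sign of both axes, and 12 were also called in old.

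Total counts of the 6 libraries ran from 3697772 to 5143694, against 2328233 to 6034446 over all 36, and 3 reads in a library equal 0.624 to 0.845 CPM. Replicate 1 of both young groups held Y-linked transcripts, as in males (4 genes summed, 297 CPM before and 321 at 240) and the others did not. Of the 26 lower genes, the Y-positive library before was below both others for 20 and under 50% of their mean for 11. The shares over all genes were not taken. That library was above all 3 libraries at 240 for 26, which follows from the lack of overlap in the called genes and adds nothing to it. Without these libraries 28 genes were called, 21 of them among the 33, and Jun and Fos had log2 fold changes of -4.33 and -5.96. Markers of the liver's cell types were present: summed hepatocyte markers were at 59931 to 66237 CPM before and 47462 to 63837 at 240. Endothelial markers (14 of 15 measured) summed to 1057 to 1162 CPM before and 912 to 994 at 240, without overlap. Of these 14 genes 0 were called, and 1 was lower at an unadjusted p under 0.05 (edgeR quasi-likelihood), beside 2.56% over all genes tested. The median log2 fold change of the 14 was -0.16, with 11 below 0, and the interval lay within 2-fold for 13. The lower sum was therefore a small difference, and the part of endothelial markers in the results was not tested. Sums of the other 7 marker lists overlapped. Of 11 measured markers of adipose, muscle and pancreas, 4 were at 0 in all 6 libraries: Lep, Ckm, Ins2 and Pnliprp1. The sum of that list was 5.72 to 7.51 CPM before and 1.34 to 8.45 CPM at 240. In bulk tissue, fewer cells of a type and less RNA per cell cannot be told apart.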

How the data were processed

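Total RNA from frozen mouse liver was freed of DNA, depleted of ribosomal RNA and sequenced, per the labels' protocols. The deposited values were whole-number read counts per gene symbol, 21955 in each table, with 1 table per library. The submitters' processing notes name Trimmomatic 0.39, STAR 2.7.5b, featureCounts and GRCm38/mm10. The annotation and the use of strand are not given in the sources used here. Symbols that read as dates numbered 27.

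The test was the quasi-likelihood F test of edgeR 4.0.16 (R 4.3.3). TMM factors were 0.930 to 1.133 and filterByExpr on 12 groups left 13436 genes. All 36 libraries entered 1 quasi-likelihood fit with robust estimation, Benjamini-Hochberg adjustment was made within each contrast, and genes were called at an adjusted p under 0.05. CPM used TMM-scaled totals, log2 CPM used a pseudocount of 1, and intervals of fold changes are 95% intervals from the fit. Count ratios carry exact intervals, which cover counting error only. The common biological coefficient of variation was 24.7%. The script was tested on simulated data. The design text calls replicates biological, and nothing says which share an animal, so p-values measure the spread between these libraries. By 3 same-number pairs of the young groups, deviations from the group means correlated at 0.57, 0.28 and 0.18, and at 0.58, 0.37 and 0.45 in old. The 0.57 and 0.58 were the pairs of libraries with Y-linked transcripts. Cross pairs of replicates 2 and 3 reached 0.29 and 0.25 in young, and 0.095 and 0.27 in old. In young the numbers were therefore not shown to pair the libraries. Y-linked transcripts were in young replicate 3 at 48 and 72 and in young replicate 2 at 96. The replicate block thus joined unlike libraries across times, and it served only as an alternative. No 2 libraries held identical counts.

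Genes named were those called, up to 3 per list by p, 11 fixed genes such as Mki67, and the 5 uncalled genes with the smallest p. Members, lists and rules were chosen with earlier results of these data known. Egr1, Jun and Fos were among the fixed genes. Promoters came from RefSeq (GRCm38.p6), with an entry for 23 of the 26 lower genes. Alternatives were other scalings and filters, DESeq2 1.42.0, other sets of libraries, a replicate block, a term for Y-linked transcripts and each library left out in turn.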

Additional observations from a re-analysis of the deposited data

How the results depend on the processing

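Of the 33 genes called in young at 240, 33 kept their direction and 6 kept their call under every alternative run for them (15 to 17 each): Sox13, Zfp36, Jun, Gdf15, Nr4a1 and Rbm3. With the replicate block 33 were called in young, 28 of them among the 33, and 0 for the difference between ages. It lost Rgs1, Reep1, Dusp1 and 2 noncoding RNAs. The calls it gained included Dusp6 (0.0256), Trim13 (0.0376) and Lrrc61 (0.048), given as adjusted p (edgeR quasi-likelihood). The young count was 48 with DESeq2, 43 in a fit of only the 2 groups (18 among the 33), 45 with only the young libraries, 26 without a filter on low counts and 8 to 30 with a library left out. In old, the count of 21 became 9 with total-count scaling, 12 without a filter, 54 with DESeq2, 0 in a fit of only the 2 groups (927 at an unadjusted p under 0.05, edgeR quasi-likelihood), 0 with only the old libraries (721), 13 with the replicate block, 32 with a term for Y-linked transcripts, 10 without the libraries holding them, and 4 to 28 with a library left out. Immediate early genes called lower numbered 15 with DESeq2 and 4 to 11 with a library left out. The distance of young 240 from before turned from 0.018 to -0.029 over the 1000 most abundant genes, and was 0.076 without the libraries holding Y-linked transcripts. With a library left out, log2 fold changes ran from -0.046 to 1.196 for Mki67, -0.39 to 0.83 for Top2a and -0.061 to 0.74 for Cdkn1a, each lowest without replicate 2 at 240. Ccnb1 ran from -1.79 to 0.31, and was 0.16 without replicate 1 at 240. Alb ran from -0.0076 (without replicate 1 at 240) to 0.17, and was -0.072 without the libraries holding Y-linked transcripts. None of these 5 genes was called. The cause was not tested. Of all 13436 genes, 9099 lay within 2-fold, beside 9582 of 11814 in a fit of the 2 groups. A library left out leaves 2 in its group. Genes under about 1 CPM, such as Ccnb1, are limited by depth.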

Other observations

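Some groups of genes that did not enter the account above leaned upward at 240 in young liver without a call. Over all genes tested the median log2 fold change was 0.00. Of 35 interferon response genes tested, 4 were below 0, the median log2 fold change was 0.29, and 0 were called or passed an unadjusted p under 0.05 with edgeR's quasi-likelihood test. Of 27 acute phase genes, 0 were called and the median was 0.26. At an unadjusted p under 0.05, 2 of them were higher, beside 2.55% over all genes tested. Orm2, an acute phase plasma protein of the liver, was at 5.62, 15.7 and 21.1 CPM before and at 19.4, 98.5 and 72.5 CPM at 240. Its mean had been 274 CPM at 48 and 154 at 120. Lcn2, an iron-sequestering protein of inflammation, was at 2.08, 3.48 and 2.66 CPM before and at 2.54, 17.5 and 19.8 CPM at 240, after a mean of 336 at 48. For both genes replicate 1 at 240 lay within the range before while replicates 2 and 3 lay above it, and neither passed the threshold (adjusted p = 0.314 and 0.828, edgeR quasi-likelihood). Of 12 Kupffer cell and macrophage markers, 0 were below 0 and 0 were called, and their sum ran from 704 to 878 CPM before and from 735 to 1233 at 240.

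Among 24 bile acid genes 0 were called. At an unadjusted p under 0.05, where 2.56% of all genes tested were lower, 1 of the 24 was lower. That gene was Nr0b2, a nuclear receptor that represses bile acid synthesis, at 23.7, 69.9 and 70.0 CPM before and at 16.6, 15.2 and 11.5 CPM at 240 (adjusted p = 0.412, edgeR quasi-likelihood). Of 20 circadian clock genes 0 were called, with a median of -0.14. At an unadjusted p under 0.05, beside the same 2.56% over all genes, 2 of the 20 were lower. Those were Bhlhe40, at 448, 382 and 508 CPM before and 293, 298 and 181 CPM at 240, and Clock, at 95.9, 83.1 and 125 CPM before and 80.0, 58.2 and 68.5 CPM at 240. Neither pair of groups overlapped, but neither gene was called. Both were picked as the members of their list with the smallest p, and the share of all genes without overlap was not taken.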
